A study of Mus musculus with 6 samples.

Results

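The nerve and Schwann cell genes described here are 7 genes chosen by name, *Th*, *Dbh*, *Npy*, *S100b*, *Sox10*, *Mbp* and *Ncmap*, of 23462 genes with a probe on the array. They were read through all 12 array probes whose RefSeq accession maps to them. Brown adipose tissue (BAT) of 3 wild-type (WT) mice and 3 miR-22 knockout (KO) mice was hybridized to 6 single-dye Agilent mouse arrays, with 1 mouse per array. All mice were male and 8 weeks old. The KO mice came from a repository line with a constitutive deletion, so that miR-22 was missing from neurons and Schwann cells as well as from adipocytes, and their strain is not given in the sources used here. The comparison asks whether transcripts of the nerve supply of BAT differed between the genotypes.

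BAT is switched on by its sympathetic nerves. Their fibres make noradrenaline from tyrosine in steps that include tyrosine hydroxylase (*Th*), aromatic amino acid decarboxylase (*Ddc*) and dopamine beta-hydroxylase (*Dbh*), and many of them also release neuropeptide Y (*Npy*). The cell bodies of these neurons lie in ganglia outside the fat pad, so that most of their mRNA is not in the dissected tissue. Schwann cells, by contrast, lie along nerve fibres, sympathetic or not, with their nuclei inside the tissue. *Sox10* is the transcription factor that defines them, *S100b* encodes a calcium-binding protein that they make, and *Mbp* and *Ncmap* encode proteins of the myelin sheath. *S100b* is not restricted to them, since brown adipocytes also make it and it can act on sympathetic fibres, and the *Mbp* gene also gives rise to the golli transcripts, which are made outside myelin, for example in immune cells.

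The deleted microRNA is shown because it is what separates the groups. Its mature strands are given 5′ to 3′ from RefSeq on GRCm38.p6, with the seed (bases 2 to 8) in capitals. They lie on the plus strand at chr11:75463734-75463755 and chr11:75463772-75463793.
mmu-miR-22-5p: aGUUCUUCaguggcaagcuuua
mmu-miR-22-3p: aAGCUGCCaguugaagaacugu

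Signals were divided by the 75th percentile of their array and taken as log2, so that a scaled log2 signal of 0 is the brightness of that percentile. A probe counts as detected when the scanner software marked it as well above background. Between 55.8 and 66.5% of the spots were detected per array, and KO 1, the array with the lowest share, also had the highest signal among undetected probes (median 23.1 units of intensity, against 5.30 to 9.62 on the other arrays). The software marked 17.1% of the spots as outliers on WT 3 and 15.1% on KO 1, against 4.87 to 6.12% on the other arrays. WT 3 also stood apart by its skeletal muscle transcripts. The mean scaled log2 signal of 20 muscle genes was -4.47 in WT 3, against -0.21 to 3.14 in the other 5 mice. Markers of the labelled tissue were present, with all 10 brown adipocyte markers detected on all 6 arrays. WT 1 and WT 2 lay in the upper row of the single slide, and WT 3 and the 3 KO mice in the lower row.

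Of the 12 probes, 8 were detected on all 6 arrays, 1 on 2 arrays and 3 on none. *S100b* and the brightest *Mbp* probe were lower in KO mice, whereas *Sox10*, *Ncmap* and *Th* had group means within the spread between mice, and *Dbh* and *Npy* could not be tested. At an unadjusted p under 0.05 from limma, the threshold of the study's methods, 2 of the 5 tested genes were lower in KO mice and none was higher. Over all 14711 tested genes, 8.82% were lower at this threshold and 18.8% were called in either direction. No member passed after Benjamini-Hochberg adjustment over all genes, which 0.184% of the genes did. In whole tissue, fewer cells of a type and less RNA per cell cannot be told apart.

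**Figure D1:**
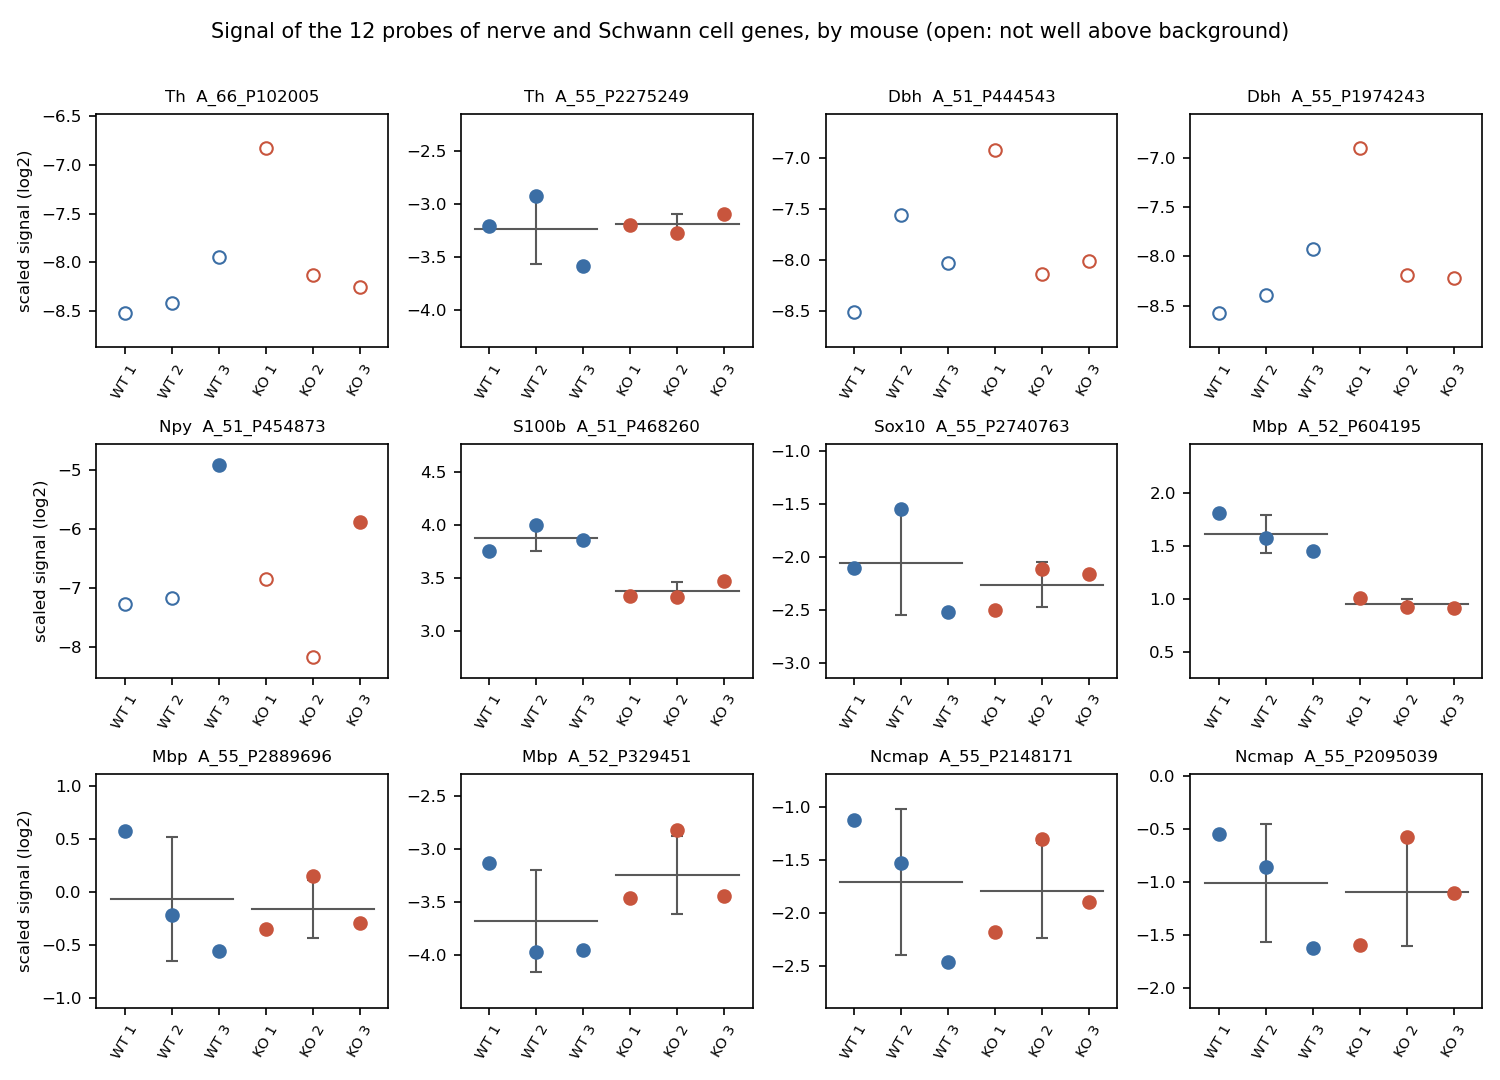
Scaled log2 signal of each of the 12 probes (vertical axis) in each mouse (horizontal axis), with WT in blue and KO in red. Open circles were not well above background; lines and bars give the group mean and SD for probes detected on at least 3 arrays. The KO mice lie below the WT mice for *S100b* and for the first *Mbp* probe, and the groups overlap for the other *Mbp* probes, *Sox10*, *Ncmap* and *Th*.

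Of the genes of the sympathetic fibre, *Th* was the only member detected throughout. Its probe A_55_P2275249 had a signal of 215, 189 and 134 units in WT 1, WT 2 and WT 3 and of 276, 271 and 187 units in KO 1, KO 2 and KO 3. On the scaled log2 scale these were -3.21, -2.92 and -3.58 in WT mice and -3.20, -3.28 and -3.09 in KO mice. WT 2 was the highest and WT 3 the lowest of the 6 mice, and all 3 KO mice lay between them. The difference between KO and WT mice was 0.046 on the log2 scale, with a 95% interval of -0.41 to 0.50 (adjusted p = 0.907 from limma). This interval corresponds to 0.754 to 1.41 times the WT level. The other *Th* probe, A_66_P102005, was not detected on any array, with 4.19 to 6.48 units in WT mice and 5.23 to 22.4 units in KO mice.

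*Dbh*, which catalyzes the last step to noradrenaline, was not detected in any mouse by either of its probes. The signals of A_51_P444543 were 5.46, 7.61 and 6.12 units in WT mice and 21.0, 9.36 and 6.22 units in KO mice. The other probe, A_55_P1974243, gave 4.26 to 6.58 units in WT mice and 5.36 to 21.3 units in KO mice. The highest value of each probe was that of KO 1, whose undetected probes had a median of 23.1 units. No test was made and no fold is given, since both groups were at background.

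*Npy* was detected in 1 WT mouse and 1 KO mouse. Its signal was 12.8, 9.98 and 53.3 units in WT mice, of which only that of WT 3 was above background. In KO mice it was 22.1, 9.13 and 27.2 units, of which only that of KO 3 was above background. The arrays differed in what counted as detected, the lowest detected signal of any probe being 25.6 units in KO 3 and 104 units in KO 1. The groups could not be ordered from these values.

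Of a wider list of 20 sympathetic neuron genes, 7 had no detected probe on any array, among them *Dbh* and the noradrenaline transporter *Slc6a2*. A test was possible for 10 genes, and none of them was called in either direction at an unadjusted p under 0.05. The median log2 difference was -0.07, beside -0.03 over all tested genes. *Slc18a2*, the vesicular monoamine transporter, averaged -2.31 ± 0.54 in WT and -2.15 ± 0.12 in KO mice (SD, n = 3 each), a difference of 0.15 with an interval of -0.49 to 0.79. Mast cells also use this transporter. Of 6 tested mast cell genes, 4 were higher in KO mice at an unadjusted p under 0.05 (of all 14711 genes, 1476 were). The mast cell list means were -1.73 to -1.33 in WT mice and -0.60 to -0.32 in KO mice. The part of mast cells in the *Slc18a2* signal was not tested. *Ddc* was detected on 3 of the 6 arrays and differed by -0.10 (interval -0.76 to 0.57). *Chga*, a protein of secretory granules, and *Ddc* were each detected in 1 KO mouse only, so that leaving out KO 1 or KO 2 leaves no detected KO value of *Chga* or *Ddc*, and no difference is given for them there. *Hand2*, a transcription factor of sympathetic neurons detected in all mice, differed by -0.36 (interval -1.04 to 0.32) and was not called. It was called as lower in KO mice only when KO 2, its highest mouse (-3.87), was left out (-0.63).

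Of 22 genes expressed by neurons in general, 18 were tested, 3 were lower in KO mice and none was higher at an unadjusted p under 0.05 from limma. The share called, 16.7%, was all in the lower direction. Of all tested genes, 8.82% were lower and 18.8% were called in either direction. Their median log2 difference was -0.08, and none passed adjustment over all genes. *Syp*, which encodes the synaptic vesicle protein synaptophysin, was at -0.79, -0.42 and -0.81 in WT mice and at -1.53, -1.41 and -1.66 in KO mice. The groups did not overlap, and the log2 difference was -0.86 (standard error 0.16, adjusted p = 0.0743 from limma, 0.0348 to 0.489 over the alternatives). *Snap25*, a protein of vesicle fusion, had a difference of -0.62 with only 2 usable mice per group, and *Mapt*, which encodes tau, one of -0.38. Of these 3 genes only *Syp* stayed under the unadjusted threshold after quantile normalization, where *Snap25* was at -0.37 and *Mapt* at -0.17. The other tested *Mapt* probes were at -0.66, -0.54 and -0.18, and the mean of its probes was at -0.42. In the fit over all probes, those at -0.66 and -0.54 were under the unadjusted threshold, and the brightest probe was not. The neuronal markers *Rbfox3*, *Syt1* and *Cntn1* were not detected on any array. *Tubb3*, a tubulin of neurons, was detected in only 2 WT mice and 1 KO mouse, and differed by -0.08 (interval -0.88 to 0.72). In WT mice the mean scaled log2 signal was -5.54 for *Tubb3*, against 4.11 for *Snap25* and 3.37 for *Mapt*. Which cells gave the *Snap25* and *Mapt* signals was not tested. Leaving out WT 1, KO 1 or KO 2 reduced the number of lower genes on this list from 3 to 1.

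*S100b* was the first of the 2 members that were lower in KO mice. Its only probe, A_51_P468260, read 26804, 22965 and 23194 units in WT mice and 25501, 26271 and 17730 units in KO mice, so that the unscaled signals overlapped. After scaling, *S100b* was at 3.76, 4.0 and 3.86 in WT mice and at 3.33, 3.32 and 3.47 in KO mice. All 3 KO mice were then lower than all 3 WT mice, which was so for 14.7% of the genes with 6 values. The means were 3.87 ± 0.12 and 3.37 ± 0.09 (SD, n = 3 each). The log2 difference was -0.50 (standard error 0.14, 95% interval -0.82 to -0.18), or 0.708 times the WT level (adjusted p = 0.139 from limma, 0.108 to 0.587 over the alternatives). The size depended on the scaling. It was -0.26 after quantile normalization and -0.25 in the authors' processed values, where all KO mice were again below all WT mice. With normexp background correction, *S100b* was at -0.25 and no longer under the unadjusted threshold, and with the slide row as a block it was at -0.48 (adjusted p = 0.587 from limma).

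Brown adipocytes also make *S100b*, so the adipocyte lists are given beside it. The mean of 10 brown adipocyte markers was 2.73, 3.03 and 2.87 in WT mice and 2.74, 2.32 and 2.88 in KO mice, and that of 10 general adipocyte genes was 3.36 to 3.73 and 3.10 to 3.64. Both lists overlapped between the groups. *Clstn3*, whose locus encodes a factor that promotes release of S100b from brown adipocytes, differed by -0.29 (interval -0.78 to 0.21), and its other tested probe by 0.32. *Ucp1*, the uncoupling protein of brown fat, had too many marked spots for the test. When they were kept, it differed by -0.38 (standard error 0.21) and was not called.

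*Mbp* gave different answers on its 3 probes. Whether each of them reads golli or myelin transcripts could not be checked. The brightest, A_52_P604195, is annotated to the transcript NM_001025245 and read 1.81, 1.58 and 1.45 in WT mice and 1.01, 0.93 and 0.91 in KO mice on the scaled log2 scale. No KO mouse reached the lowest WT mouse. The means were 1.61 ± 0.18 and 0.95 ± 0.05 (SD, n = 3 each), a log2 difference of -0.66 (standard error 0.14, 95% interval -1.0 to -0.32) or 0.632 times the WT level (adjusted p = 0.0962 from limma). Over the alternatives, the adjusted p ranged from 0.0362 to 0.826.

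The other *Mbp* probes are both annotated to NM_010777, and neither was called. A_55_P2889696 was at 0.58, -0.21 and -0.56 in WT mice and at -0.35, 0.16 and -0.29 in KO mice, where the 2 brightest mice were WT 1 and KO 2. Its difference was -0.10 (interval -0.83 to 0.63). A_52_P329451 was at -3.13, -3.97 and -3.95 in WT mice and at -3.46, -2.82 and -3.45 in KO mice, a difference of 0.44 (interval -0.25 to 1.13), with KO 2 again the highest mouse and WT 1 the second.

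The gap between the probes was compared within each mouse. The brightest probe exceeded A_52_P329451 by 4.94, 5.55 and 5.40 in WT mice and by 4.48, 3.75 and 4.36 in KO mice, without overlap. The change in this gap, -1.10, had p = 0.1 in a two-sided exact permutation test, the smallest value that 3 mice against 3 can give. The gap to A_55_P2889696 changed by -0.57 and overlapped between the groups (two-sided exact permutation test, p = 0.2). When the 3 probes were averaged, *Mbp* differed by -0.11 (adjusted p = 0.826 from limma) and was no longer called. The call of *Mbp* thus rested on 1 of its 3 probes. With the slide row as a block, that probe was at -0.50 (adjusted p = 0.565 from limma).

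*Sox10*, the defining gene of Schwann cells, was at -2.10, -1.55 and -2.52 in WT mice and at -2.50, -2.11 and -2.16 in KO mice. Its highest and its lowest mouse were both WT. The difference of -0.20 had an interval of -0.82 to 0.42 (adjusted p = 0.690 from limma), or 0.566 to 1.33 times the WT level. Without WT 2 the sign changed, to 0.051, and with the slide row as a block the difference was 0.26. The SD between WT mice, 0.49, was larger than that of 90.5% of all tested genes.

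*Ncmap*, a protein of noncompact myelin, was measured by 2 probes that tracked each other. The brighter, A_55_P2095039, was at -0.55, -0.86 and -1.63 in WT mice and at -1.59, -0.58 and -1.11 in KO mice. The other, A_55_P2148171, was at -1.12, -1.53 and -2.46 in WT mice and at -2.17, -1.29 and -1.90 in KO mice. On both probes WT 1 and KO 2 were the highest mice and WT 3 and KO 1 the lowest, so that each genotype held a high and a low mouse. The gap between the probes changed by 0.00 between the groups (two-sided exact permutation test, p = 0.9). The difference between KO and WT mice on the brighter probe was -0.08 (interval -0.91 to 0.75, adjusted p = 0.907 from limma). It was 0.15 without WT 1, 0.17 without KO 1 and 0.53 with the slide row as a block. The interval spans 0.531 to 1.68 times the WT level, the widest of the 5 tested members, and the SD between WT mice (0.56) exceeded that of 93.2% of all genes.

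Of 35 names on the list of Schwann cell and myelin genes, 33 were tested. A lower mean in KO mice was seen for 24 of these 33, and for 7779 of all 14711 tested genes, a smaller share. Of the 33, 4 were lower and none was higher at an unadjusted p under 0.05 from limma, and none passed adjustment over all genes. The share called, 12.1%, was all in the lower direction. Of all tested genes, 8.82% were lower and 18.8% were called in either direction. The median log2 difference was -0.21, beside -0.03 over all tested genes. Apart from the members, 29 genes were tested, with 2 called as lower in KO mice and the same median.

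Those 2 genes were *Fabp7* and *Gfap*. *Fabp7*, a lipid-binding protein of glial cells, was at -2.90, -3.15 and -2.63 in WT mice and at -3.85, -3.92 and -4.39 in KO mice. Its log2 difference was -1.16 (standard error 0.21, adjusted p = 0.0743 from limma, 0.0384 to 0.306 over the alternatives), or 0.447 times the WT level, with each KO mouse below each WT mouse. *Gfap*, a filament protein of nonmyelinating Schwann cells, was detected in 3 WT mice and 1 KO mouse, so that it entered the test through the WT mice. Its measured difference was -0.74 (standard error 0.28, adjusted p = 0.225 from limma), with 2 of the 3 KO values at background. With only genes detected on all 6 arrays, 3 genes of the list were called as lower, *Fabp7*, *Mbp* and *S100b*. *Gfap* passed the unadjusted threshold in none of the comparisons without a WT mouse, nor without KO 1 or KO 3.

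Of the other genes on the list, none of those described next was called. *Pmp22*, which many other cells also express, differed by -0.31 (interval -0.70 to 0.07), and its KO mice were less spread (2.61, 2.51 and 2.63) than its WT mice (3.02, 3.05 and 2.62). *Erbb3*, the neuregulin receptor of Schwann cells, was not detected on any array. *Egr2*, a transcription factor of myelination that is also an immediate early gene, had a difference of 0.99 (interval -0.26 to 2.24), with KO 1 at 0.28 and the other 5 mice at -2.42 to -1.35.

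**Figure D2:**
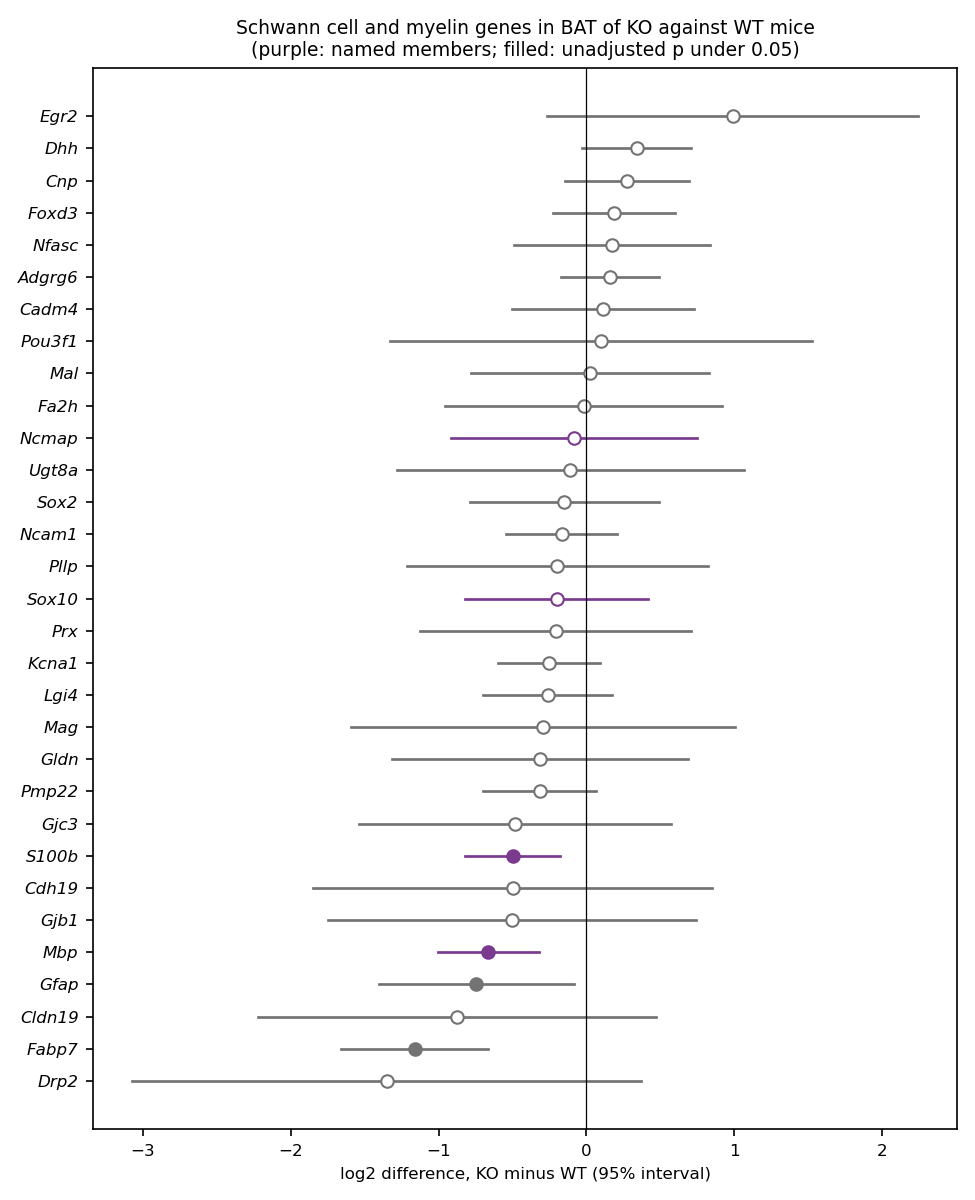
Log2 difference between KO and WT mice (horizontal axis) for 31 of the 33 tested Schwann cell and myelin genes (vertical axis), with 95% intervals from limma. Purple marks *S100b*, *Sox10*, *Mbp* and *Ncmap*; filled circles had an unadjusted p under 0.05. Of the filled genes, *Fabp7* had the largest difference, -1.16, followed by *Gfap*, *Mbp* and *S100b*.

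Schwann cell genes differed widely between mice of 1 genotype. WT 1 was the highest of the 6 mice for 16 of the 33 genes (48.5%), although it was the highest for only 7.47% of all 11576 genes with 6 values. WT 3 was the lowest for 14 of them (42.4%, against 16.4% of all genes), and KO 1 was the lowest for 9 (27.3%, against 17.6%). The mean of the list was -2.03, -2.20 and -2.80 in WT mice and -2.79, -2.24 and -2.70 in KO mice. The KO mean was thus -0.24 relative to WT, less than the SD among WT mice (0.40) or KO mice (0.30).

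The muscle list moved partly with this order. Its mean was 2.05, 1.19 and -4.47 in WT mice and -0.21, 3.14 and 1.2 in KO mice, so that WT 3 and KO 1 were lowest on both lists. The mouse with the highest muscle mean was KO 2, whereas the highest Schwann cell mean was that of WT 1. Nerve that runs in muscle carries myelinated fibres. WT 3 and KO 1 were also the arrays with the highest shares of marked spots. The part of attached muscle or of array quality in the Schwann cell values was not tested. When WT 3 was left out, 7 of 33 Schwann cell genes were lower in KO mice at an unadjusted p under 0.05, with a median of -0.45. Among them were *Drp2*, *Fabp7*, *Gldn*, *Mbp*, *Pmp22* and *S100b*. *Drp2* was detected in only 1 KO mouse. In that setting 974 of all 14584 tested genes were lower at this threshold. With the slide row as a block, where WT 3 is the only WT mouse that enters the comparison, the median was 0.33, with 1 gene lower (*Fabp7*) and 1 higher (*Cnp*). The 2 members called in the comparison of all mice were below 0 in both of these settings, *S100b* at -0.51 and -0.48 and *Mbp* at -0.74 and -0.50, and passed the unadjusted threshold only in the first.

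**Figure D3:**
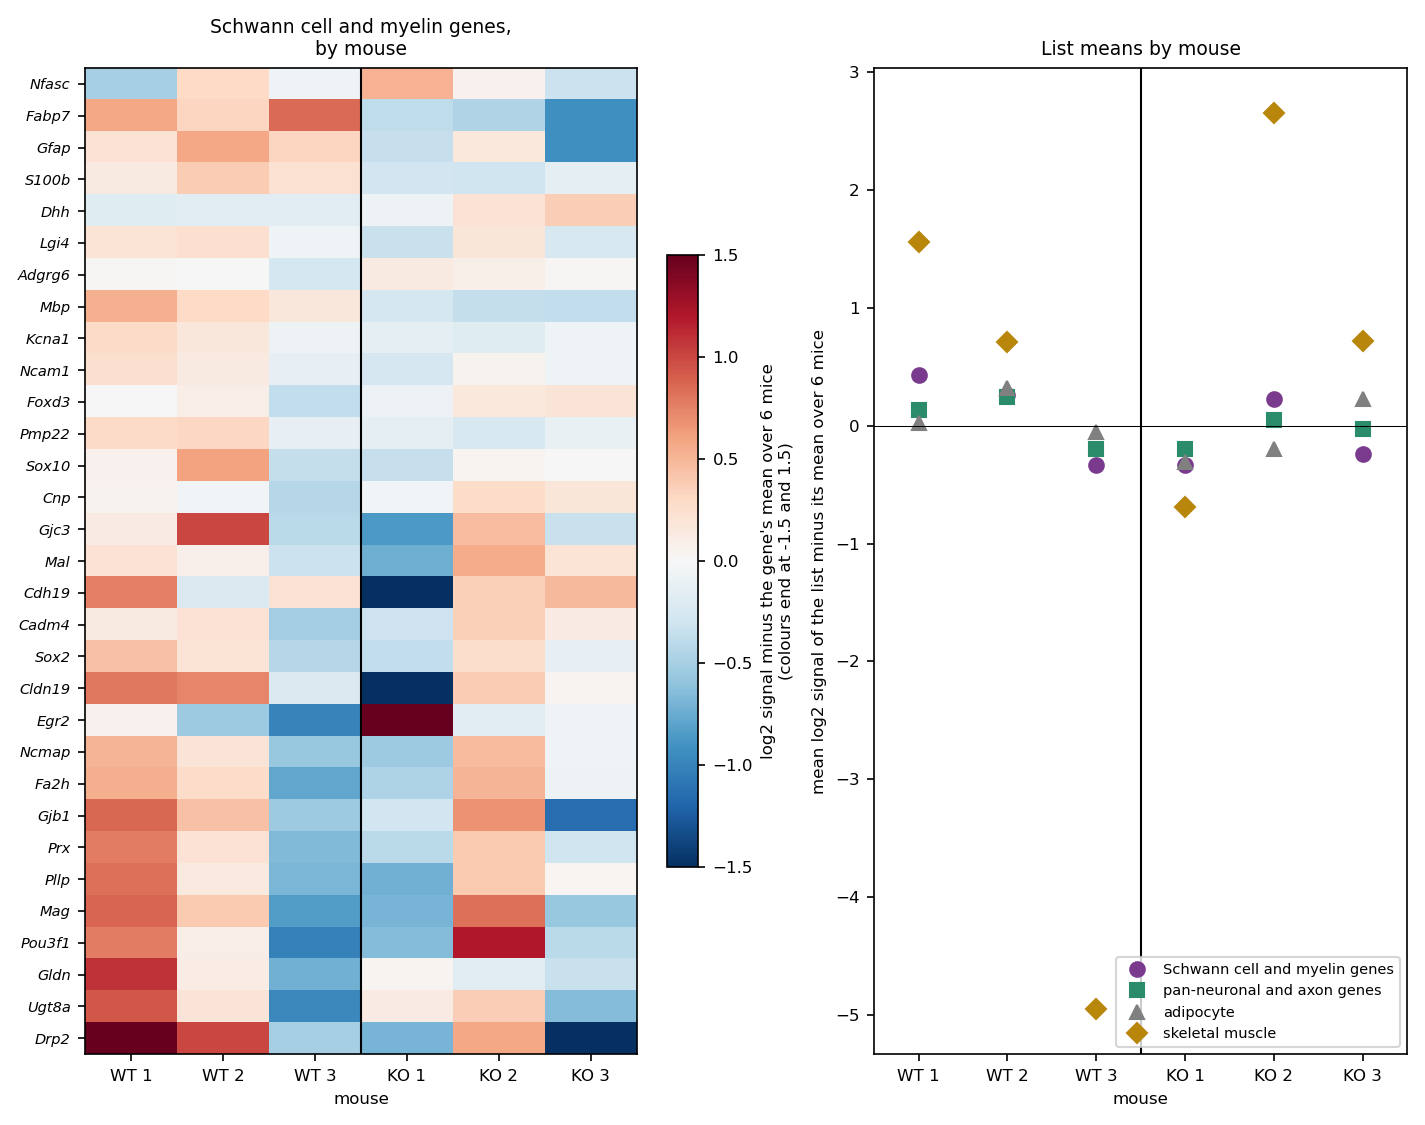
On the left, the log2 signal of 31 of the 33 Schwann cell and myelin genes in each mouse, minus the mean of that gene over the 6 mice (red higher, blue lower). On the right, the mean of 4 gene lists per mouse, minus the mean over the mice. WT 1 is high and WT 3 low for many of the genes, and the muscle mean spans 7.60 on the log2 scale against 0.77 for the Schwann cell list.

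Markers of other cells that share these genes were looked at for the same reason. Of 8 oligodendrocyte genes, *Mobp*, *Opalin*, *Cldn11* and *Olig2* were not detected on any array, and none of the 3 tested was called. Melanocytes also express *Sox10*, and none of 5 tested melanocyte genes was called, with list means of -2.93 to -2.66 in WT mice and -3.00 to -2.41 in KO mice. In the adrenal chromaffin list, which shares *Th* and *Dbh*, *Chgb* was not detected and *Pnmt* was detected on 5 arrays. For lymphocyte genes, of interest because of golli-*Mbp*, 2 of 7 were higher in KO mice at an unadjusted p under 0.05 and none was lower. Of all 14711 genes, 1476 were higher at this threshold.

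Factors that act on nerve fibres gave few calls. Of 18 such genes, 11 were tested, with a median difference of -0.09. Only *S100b* was lower at an unadjusted p under 0.05, a share of 9.09%. Of all tested genes, 8.82% were lower and 18.8% were called in either direction. *Ntf3*, a neurotrophin, differed by 0.38 (interval -0.13 to 0.90) and was called as higher in KO mice only when WT 3 was left out. *Clstn3* was called as lower only when KO 3 was left out. *Gdnf* and *Artn* were not detected on any array.

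The genes whose values over the 6 arrays were most like each member were listed by Pearson's r, as a description without a test, among 11575 genes that share the same arrays. For *Sox10* they were *Erc2* (0.992), *Ngfr* (0.991) and *St3gal4* (0.988). *Ngfr* encodes a neurotrophin receptor found on Schwann cells and sympathetic neurons, and it differed by -0.15 between the groups. For *Ncmap* they were *Wnt6* (0.998), *Ephx4* (0.992) and *H19* (0.986), and for *Th* *Ankrd66*, *Platr5* and *Smyd4* (0.983 to 0.991). *S100b* was closest to *Lap3*, *Rilp* and *Wbp2* (0.997 each) and the brightest *Mbp* probe to *Atg101*, *Fam120aos* and *Wdr81* (0.994 to 0.998), which share the split by genotype of the member they were matched to. Among the members, r was 0.84 between *S100b* and the brightest *Mbp* probe, 0.79 between *Th* and *Sox10* and 0.66 between *Sox10* and *Ncmap*. Many genes had a higher r with the first member of these pairs, namely 12.5%, 3.55% and 12% of the genes compared. The value was 0.24 between the brightest *Mbp* probe and *Ncmap*, and 0.47 between *S100b* and *Sox10*. No r was computed for the other *Mbp* probes. On both of them WT 1 and KO 2 were the highest mice, as for *Ncmap*.

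**Figure D4:**
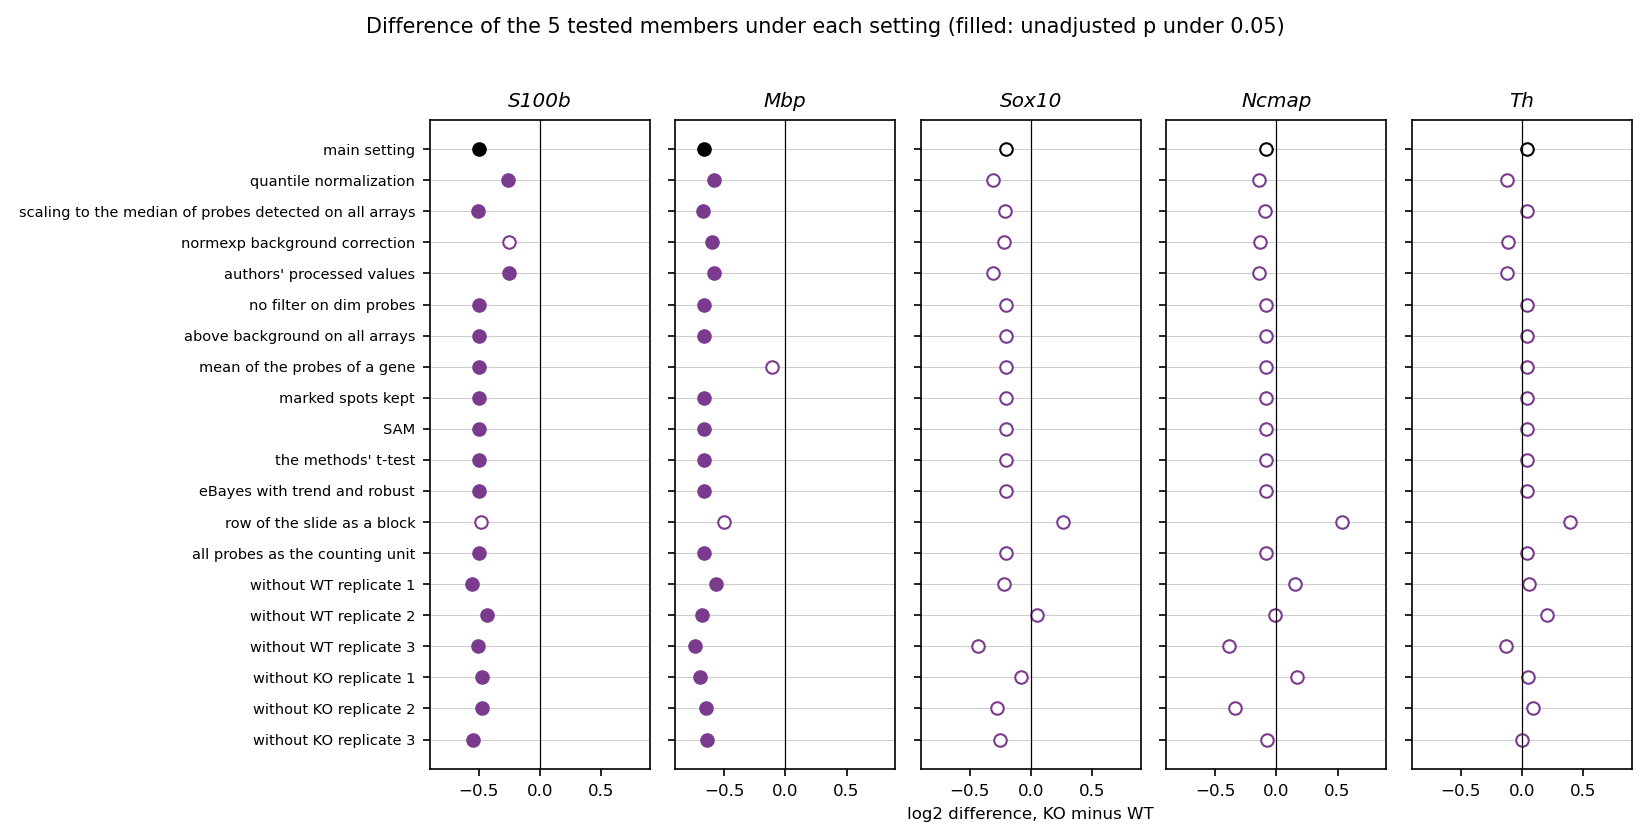
Log2 difference between KO and WT mice (horizontal axis) of the 5 tested members under the main setting (black) and 19 alternatives (purple), 1 per line; filled circles had an unadjusted p under 0.05. *S100b* and *Mbp* lie below 0 throughout and are filled in 17 of 19 alternatives each, whereas *Sox10*, *Ncmap* and *Th* lie on both sides of 0 and are never filled.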

How the data were processed

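The authors deposited, for each array, intensity values from Agilent Feature Extraction (11.5.1.1 per the file headers, 10.7 per the submitters' processing notes) as background-subtracted, spatially detrended signals without scaling between arrays, together with processed log2 values for 27497 probes, whose making is not given in the sources used here. These cover 8 of the 12 member probes.

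Signals of non-control spots were divided by the array's 75th percentile and taken as log2. Spots that the software marked (nonuniformity or population outlier) were excluded, none of them of a member. Probes were tested when detected on at least 3 of 6 arrays with at least 2 unmarked values per group. Of 56605 probes, 33767 were matched to genes through RefSeq accessions (GRCm38.p6), and the brightest testable probe stood for a gene. Groups were compared, two-sided, in limma 3.58.1 (lmFit, then eBayes; R 4.3.3, with version 1.17.8 of data.table) over 14711 genes. Single probes were fitted over 31238 probes, and their intervals come from that fit. The study's methods name SAM, which was run as an alternative beside other scalings, background correction, the authors' processed values, other filters and probe summaries, marked spots kept, the methods' t-test, other eBayes settings, the slide row as a block, and each mouse left out. The study describes the WT mice as littermate controls, with 1 mouse per array; the labels pair none of them. The number of arrays limits the precision.

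The members, lists and tests were chosen with earlier results of these data known. Named genes were the members, up to 5 called genes per direction of each list, fixed landmarks such as *Pmp22* and *Ddc*, and the 3 genes most like each member. Other genes named (for example *Egr2*, *Erbb3*, *Ntf3*, *Cnp* and *Chga*) were chosen after their values were seen. Some genes of this rule are not reported here. The steps were tested on simulated data.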

Additional observations from a re-analysis of the deposited data

How the results depend on the processing

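*S100b* and *Mbp* were below 0 in all 19 alternatives and under the unadjusted threshold in 17 each. *S100b* lost the call with normexp (-0.25) and with the slide row as a block (-0.48), and *Mbp* with the mean of its probes (-0.11) and with the row (-0.50). Normexp or the mean of probes left 1 member called, and the row none. *Th* changed sign after quantile normalization (-0.12), with normexp (-0.11) and in the authors' processed values (-0.12), and *Sox10* (0.26) and *Ncmap* (0.53) did so with the row. With the row, 1 neuronal and 2 Schwann cell genes and *Ntn1* (0.78, in place of *S100b*) were called, and the values equal those within the lower row, since the upper row holds WT mice only. Without the filter on dim probes, 1 sympathetic (*Slc18a1*, at background in most mice) and 1 neuronal gene were called. With a trend and robust eBayes 5 neuronal genes were called, and with normexp 0 neurotrophic factors. The cause of these changes was not tested. Omitting 1 mouse at a time gave -0.13 to 0.20 for *Th*, -0.43 to 0.051 for *Sox10*, -0.39 to 0.17 for *Ncmap*, -0.55 to -0.43 for *S100b* and -0.74 to -0.56 for *Mbp*. It gave 0 to 2 sympathetic (*Chga* and *Ddc* only against KO mice at background), 1 to 3 neuronal and 3 to 7 Schwann cell genes and 1 to 2 neurotrophic factors called. *Dbh* and *Npy* had no value to compare. No paired analysis was possible because the labels give no numbers shared between the groups. Undetected probes allow no order between groups, and KO 1 had the highest detection limit.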
